A study of Mus musculus with 18 samples.

Results

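The 39 genes described here drive and mark the cell division cycle in mouse liver. They were taken from a list of symbols: 18 act mainly around the G1/S transition and in DNA replication, 20 act in G2 and mitosis, and Cdkn1a encodes an inhibitor of the cyclin-dependent kinases. A gene was read through an Affymetrix Mouse430_2 probe set paired with that symbol and no other, and where several were paired, the one with the highest mean signal was used. This gave 38 measured members of the 18193 genes on the array, because Ccnb1 had no probe set paired with it alone. Cdc6, Tyms and Bub1 lay under the filter on dim genes (the lowest 25% of genes by mean signal), so 35 members were tested among 13645 genes: 16 of G1/S, 18 of G2/M, and Cdkn1a.

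A cell enters the cycle when mitogens raise D-type cyclins, which with their kinases release E2F transcription factors from the retinoblastoma protein. E2F factors then switch on genes for origin licensing, DNA synthesis and nucleotide supply, among them the MCM genes, whose products form the ring-shaped helicase that opens DNA at replication origins. Later, the DREAM complex gives way to the MYB-MuvB and FOXM1 activators at genes for mitosis, many of which carry CCAAT boxes and a cell cycle homology region (CHR) in their promoters. Hepatocytes of the adult liver are largely quiescent, re-enter the cycle after tissue loss or injury, and can replicate DNA without dividing.

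The study measured RNA from whole livers of male C57BL/6J mice, 1 array per mouse, and asked how a Western-style diet and quercetin, a plant flavonol, alter hepatic gene expression. Mice arrived at 5 weeks of age, were acclimated for 1 week and then ate their diet for 20 weeks, housed 3 to a cage. The control group ate AIN93G, a purified rodent diet. The western group ate a diet with 39.9% of its energy from fat and 34.0% from sucrose, made with 20% butter, 1% soy oil and 0.15% cholesterol. The third group ate that Western diet with 0.05% quercetin added. Each group had 6 arrays, but control arrays 4 and 5 were nearly identical over the deposited signals (Pearson r = 0.999662, against at most 0.995908 for any other of the 153 pairs), so they were averaged and counted as 1 control sample, called control 4-5. The comparisons therefore rest on 5 control, 6 western and 6 western with quercetin samples. AIN93G with quercetin was not analysed here, which leaves quercetin tested within the Western diet only. Because whole tissue was hybridised, more cycling cells and more transcript per cell cannot be told apart.

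Promoters are shown first, because the phases to be compared are each known for their own promoter motifs. RefSeq start sites on GRCm38.p6 gave a window of 300 bases (250 before and 50 after the start) for 31 of the 39 members. The 250 bases before the start are printed for the 2 G1/S genes that passed the test in the western group, and for Cdk1 and Ccnb2, the kinase and a cyclin of mitotic entry, with E2F, CHR and CCAAT words in capitals and the strand of the gene read 5′ to 3′. Mcm5 lies on the plus strand at chr8:75109259-75109508, Mcm6 on the minus strand at chr1:128359706-128359955, Cdk1 on the minus strand at chr10:69352913-69353162 and Ccnb2 on the minus strand at chr9:70421555-70421804.
Mcm5: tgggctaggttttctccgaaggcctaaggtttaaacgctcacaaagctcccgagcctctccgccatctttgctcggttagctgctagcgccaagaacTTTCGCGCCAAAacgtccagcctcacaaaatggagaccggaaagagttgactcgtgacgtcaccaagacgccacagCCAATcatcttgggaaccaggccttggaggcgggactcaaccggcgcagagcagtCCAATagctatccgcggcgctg
Mcm6: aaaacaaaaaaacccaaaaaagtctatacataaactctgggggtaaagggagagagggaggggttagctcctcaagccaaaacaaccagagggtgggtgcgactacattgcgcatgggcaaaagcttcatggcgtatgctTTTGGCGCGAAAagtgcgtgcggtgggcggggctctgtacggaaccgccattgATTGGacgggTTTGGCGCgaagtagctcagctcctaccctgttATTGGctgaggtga
Cdk1: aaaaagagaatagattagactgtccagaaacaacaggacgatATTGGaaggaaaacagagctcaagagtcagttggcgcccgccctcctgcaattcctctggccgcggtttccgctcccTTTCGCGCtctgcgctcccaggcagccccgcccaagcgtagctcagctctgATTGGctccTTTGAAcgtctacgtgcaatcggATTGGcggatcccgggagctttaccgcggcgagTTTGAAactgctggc
Ccnb2: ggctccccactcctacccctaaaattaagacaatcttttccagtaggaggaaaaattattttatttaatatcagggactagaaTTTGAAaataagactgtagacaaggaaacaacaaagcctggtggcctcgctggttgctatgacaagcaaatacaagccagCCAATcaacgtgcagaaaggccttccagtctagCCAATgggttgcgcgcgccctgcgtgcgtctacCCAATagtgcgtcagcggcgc

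In Mcm5 a pair of overlapping E2F words formed the run TTTCGCGCCAAA, which began 153 bases before the start. In Mcm6 a like run, TTTGGCGCGAAA, began 110 bases before the start, and a further TTTGGCGC began 47 bases before it. Cdk1 held 1 E2F word, 2 CHR words and 3 CCAAT boxes in its window, and Ccnb2 held 2 CHR words and 3 CCAAT boxes.

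The words were searched on both strands: TTTCGCGC, TTTGGCGC, TTTCCCGC and TTTGCCGC for E2F, TTTGAA and TTCGAA for CHR, and CCAAT. An E2F word stood in 6 of 14 G1/S windows (42.9%), in 1 of 16 G2/M windows (6.25%) and in 2.60% of the windows of 27025 genes. A CHR word stood in 2 of 14 G1/S windows (14.3%), in 13 of 16 G2/M windows (81.2%) and in 21.7% of all. CCAAT stood in 8 of 14 (57.1%), 14 of 16 (87.5%) and 41.1%, respectively. The MCM genes Mcm3, Mcm5, Mcm6 and Mcm7 each held at least 2 E2F words, whereas the windows of Mcm2, Pcna, Rrm1, Rrm2, Tk1, Tyms, Ccne1 and E2f1 held none of these exact words. These matches describe letters in a window and not occupied sites.

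The arrays differed in ways that touch these genes. Median deposited signal ran from 12.7 to 23.2 over the 18 arrays, and its group mean was 15.0 in control samples, 18.3 in western samples (exact permutation test, two-sided, p = 0.0216) and 19.1 with quercetin (exact p = 0.0130 against control). The log2 ratio of the actin 3′ to 5′ control probe sets, a measure of RNA integrity, was 0.685 ± 0.055 (SD, n = 5) in control samples, 0.543 ± 0.110 (n = 6) in western samples (exact p = 0.0325) and 0.552 ± 0.078 (n = 6) with quercetin (exact p = 0.0195 against control). The same ratio of the Gapdh control probe sets showed no such difference. It was -0.371 in control, -0.385 in western (exact p = 0.513) and -0.395 in quercetin samples (exact p = 0.331 against control). Levels below are log2(signal + 16) after quantile normalization, a scale whose floor is 4 and on which changes of dim genes are compressed. Levels of different genes come from different probes and are not compared.

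Mean levels of the G1/S genes were higher in every liver on the Western diet, with or without quercetin, than in any control liver. The gap was narrow, from 6.30 in control 2 to 6.34 in quercetin sample 3. How many other gene sets separate in this way was not counted. Mean levels of the G2/M genes overlapped between groups, although the median log2 change in the western group was 0.29 for both phases. The mean over 18 G1/S genes was 6.03, 6.30, 6.16, 6.24 and 6.25 in control samples 1, 2, 3, 4-5 and 6. It ran from 6.35 to 6.70 (median 6.45) in the western group and from 6.34 to 6.98 (median 6.49) with quercetin. Livers 4 and 5 of the western group and liver 5 of the quercetin group stood highest.

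The mean over 19 G2/M genes was 4.91, 5.12, 5.07, 4.80 and 4.84 in the control samples. It ran from 4.85 in western 2 to 5.36 in western 1 (median 5.24), and from 4.91 in sample 6 to 5.48 in sample 2 of the quercetin group (median 5.09). Western 2 therefore lay among the control livers for the mitotic genes while it lay above them for the G1/S genes. Its G1/S mean includes Mcm2, which stood apart from the rest of the group at 7.83. No test is given for these means, since the gene list was chosen with results of these data known.

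**Figure D1:**
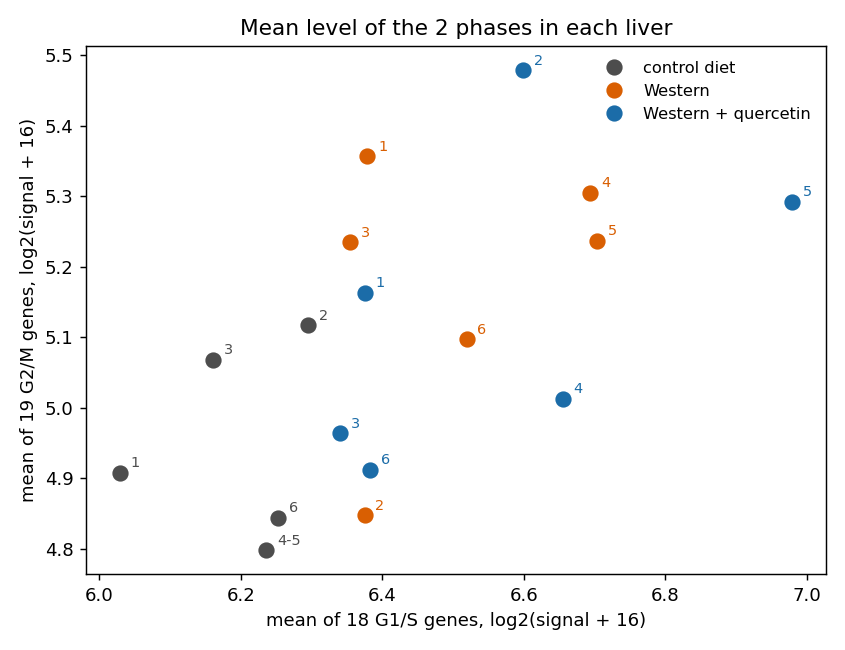
Each point is 1 liver, with the mean level of 18 G1/S genes on the x axis and of 19 G2/M genes on the y axis, both as log2(signal + 16), and with its number in the labels. Control points lie at or under 6.30 on the x axis and all others at or above 6.34, while on the y axis western 2 and 6 and quercetin samples 3, 4 and 6 lie within the control range of 4.80 to 5.12.

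**Figure D2:**
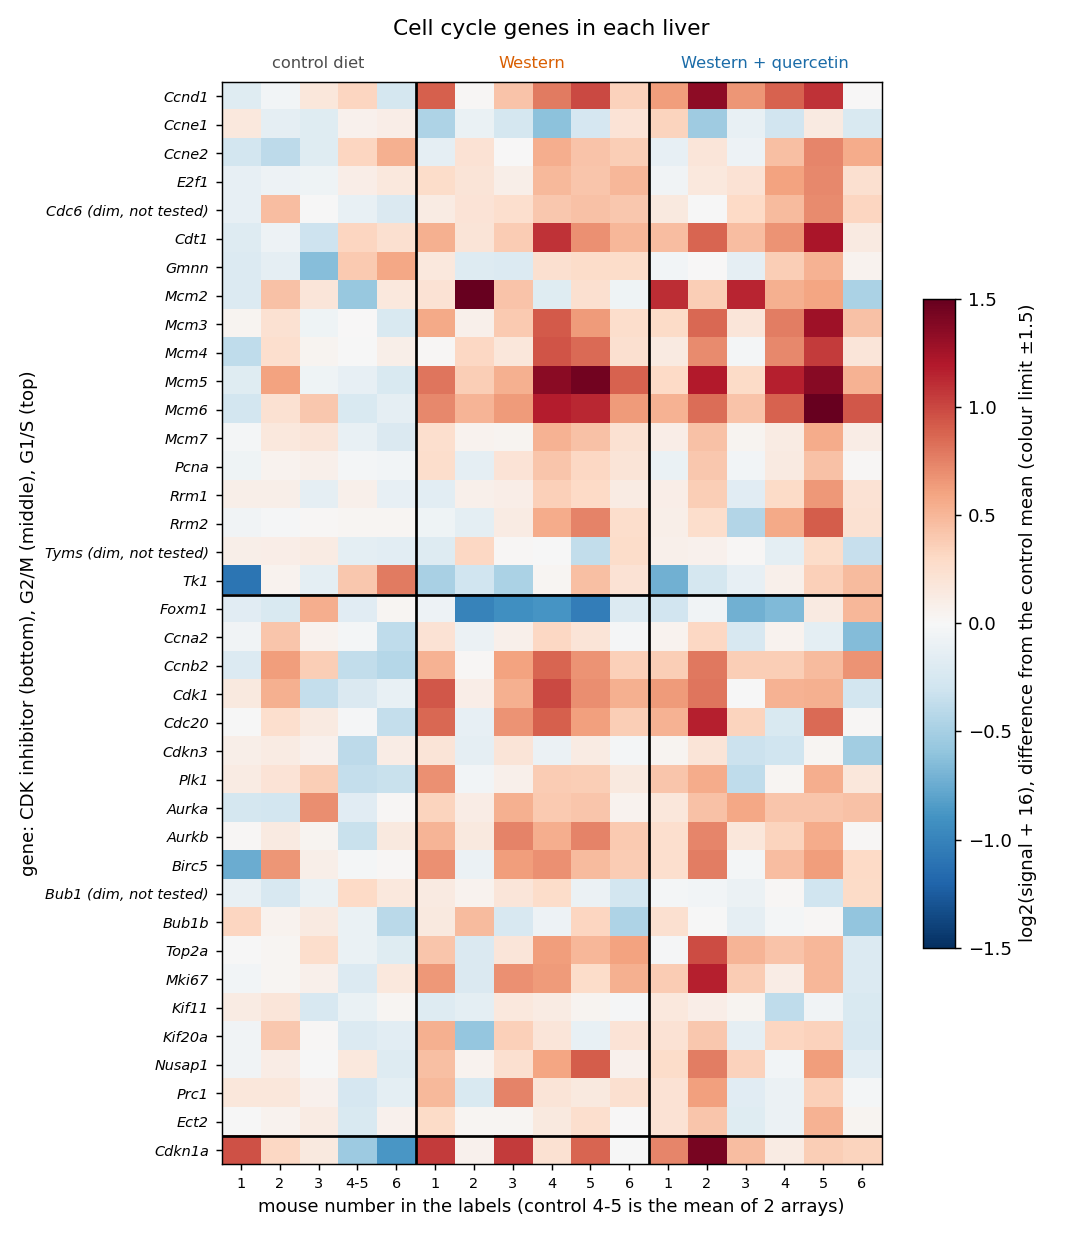
Every measured member (rows, G1/S at the top, G2/M in the middle, Cdkn1a at the bottom) in each of the 17 samples (columns, by group and number), coloured by its log2(signal + 16) minus the control mean. Red is higher and blue lower, and the rows of Mcm3 to Mcm6 are red in nearly all livers on the Western diet, most deeply in western 4 and 5 and in quercetin sample 5.

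The Western diet was first set against the control diet. Of the 35 members tested, 3 rose and 0 fell at an adjusted p under 0.05 (limma, Benjamini-Hochberg over 13645 genes): Mcm5 and Mcm6, subunits of the replicative helicase, and Aurkb, the kinase of the chromosomal passenger complex that corrects chromosome attachment and drives cytokinesis. That is 3 of 35 beside 8.65% of all genes called in either direction, with 5.49% called higher and 3.16% lower, so the share of members called stood near the background. The signs leaned further one way: 31 of 35 members had a positive difference, against 47.0% of all genes, and the median log2 change was 0.31, against -0.015 over all genes tested. At an unadjusted p under 0.05, 14 members were higher and 1 lower, where 12.4% of all genes were higher and 10.9% lower.

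Mcm6 was 5.79, 6.29, 6.46, 5.83 and 5.93 in the control samples and ran from 6.57 to 7.24 (median 6.74) in the western group. All 6 western livers lay above all 5 control samples, which held for 4.17% of all genes. The log2 change was 0.80 (SE 0.18), a 1.74-fold rise, with an adjusted p of 0.0106. Leaving out any 1 sample kept the adjusted p at or under 0.0306.

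Mcm5 was 5.61, 6.40, 5.73, 5.66 and 5.56 in the control samples and 6.17 to 7.24 (median 6.64) in the western group. Control 2 stood inside the western range and the other control samples below it. The log2 change was 0.90 (SE 0.23), or 1.86-fold, with an adjusted p of 0.0237. The call was lost without control 1 (adjusted p = 0.0514), control 6 (0.0613), western 4 (0.0590) or western 5 (0.0576).

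Aurkb was 4.45, 4.56, 4.48, 4.10 and 4.58 in the control samples and 4.58 to 5.18 (median 4.96) in the western group. Western 2, the lowest of its group, lay just under the highest control sample, and the other 5 lay above all controls. The log2 change was 0.51 (SE 0.13), or 1.43-fold, with an adjusted p of 0.0237. Its mean deposited signal was low, at 5.07 in control and 15.9 in western samples, both under the 16 added before the log. The control mean level of 4.43 lay under the filter on dim genes at 4.56. Aurkb passed that filter, with a mean of 4.73 over all samples, only through the western (4.95) and quercetin (4.77) livers, where it was higher. The call was lost without control 4-5 (adjusted p = 0.0608), western 3 (0.0516) or western 5 (0.0576).

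With the actin 3′ to 5′ ratio as a covariate, none of these 3 genes passed (adjusted p of 0.0942 for Mcm6, 0.107 for Mcm5 and 0.190 for Aurkb), while their log2 changes were 0.79, 0.97 and 0.45, and 227 of all genes passed. The number of members called ran from 1 without western 5 (783 of all genes) to 8 without western 2 (1395), and it was 5 without control 2 (842) and 7 without quercetin sample 6 (1229), against 3 members and 1180 genes over all samples. On the deposited scale without normalization, where the median of all genes shifted by 0.22, 19 members passed beside 27.3% of all genes; in quercetin livers against control the same scale gave 17 beside 23.9%.

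**Figure D3:**
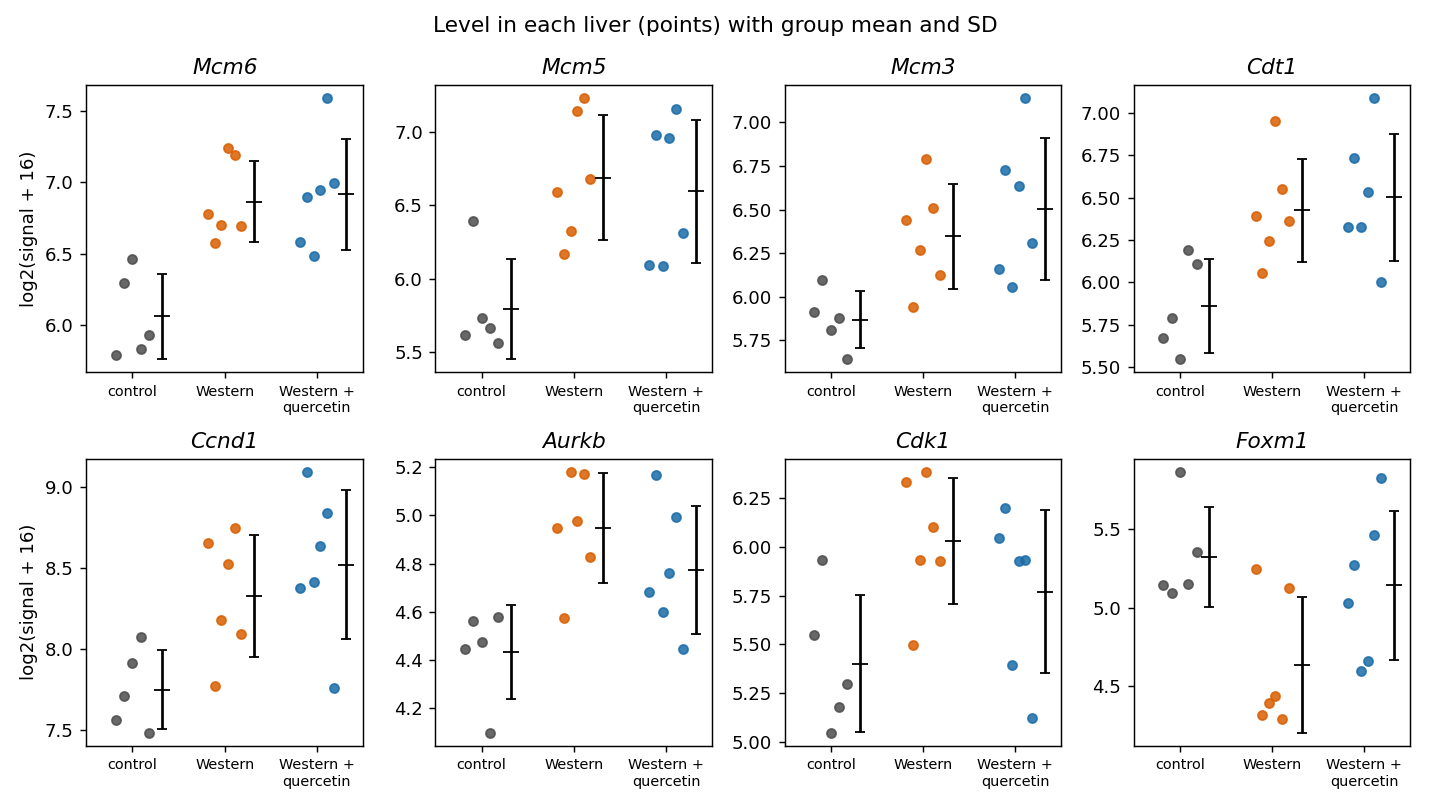
Level of 8 members in each liver (points, in label order within a group) with the group mean and SD (bars), as log2(signal + 16), for 5 control, 6 Western and 6 Western with quercetin samples; the y axes start above 0 and differ between panels. Mcm6 is the panel in which both Western-fed groups lie wholly above the control samples (highest control 6.46, lowest Western-fed 6.49), and Foxm1 is the panel in which the western group lies lowest.

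Read by their brightest probe sets, the other licensing genes tested gave positive differences that did not pass the adjusted threshold. Cdt1, which loads the helicase onto origins, was 5.67, 5.79, 5.55, 6.19 and 6.11 in the control samples and 6.06 to 6.95 (median 6.37) in the western group, a log2 change of 0.56 (SE 0.18, adjusted p = 0.0607). It passed without control 4-5 (0.0467), western 2 (0.0353), or quercetin sample 5 (0.0388) or 6 (0.0435). Mcm3 had a log2 change of 0.48 (adjusted p = 0.101), Mcm4 of 0.42 (0.215), Mcm7 of 0.26 (0.192) and Mcm2 of 0.37 (0.513). For Mcm2 the western mean was carried by western 2 at 7.83, with the other 5 livers between 6.06 and 6.67. Gmnn, whose product geminin blocks Cdt1, had a log2 change of 0.09 (SE 0.18). Cdc6, another loader of the helicase, was too dim to test.

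Among the regulators of G1, Ccnd1, which encodes cyclin D1, was 7.56, 7.71, 7.91, 8.07 and 7.48 in the control samples and 7.77 to 8.74 (median 8.35) in the western group. Western 2 lay within the control range and the other 5 livers above it, with a log2 change of 0.58 (SE 0.21, adjusted p = 0.0950). Ccnd1 passed without western 2 (0.0386) or quercetin sample 6 (0.0477). E2f1, the activating E2F factor, ran from 5.15 to 5.43 in control and 5.36 to 5.78 in western samples, a log2 change of 0.33 (SE 0.12, adjusted p = 0.109). The E-type cyclins that bind Cdk2 differed in sign, with a log2 change of -0.25 (SE 0.15) for Ccne1 and 0.24 (SE 0.19) for Ccne2, and neither passed.

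Of the genes for DNA synthesis and nucleotide supply, Pcna, the sliding clamp of DNA polymerases, ran from 8.93 to 9.07 in control samples and from 8.86 to 9.40 in western samples, a log2 change of 0.21 (SE 0.11, adjusted p = 0.261), and 5 of 6 western livers lay above every control. Rrm1 and Rrm2, the large and small subunits of ribonucleotide reductase, had log2 changes of 0.13 (SE 0.12) and 0.24 (SE 0.19). Rrm2 lay between 6.47 and 6.55 in all control samples and spread from 6.37 to 7.26 in the western group. Tk1, thymidine kinase, ranged over 5.69 to 7.56 within the control samples alone and had a log2 change of -0.09 (SE 0.28). Tyms, thymidylate synthase, was too dim to test.

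Of the genes of mitotic entry, Cdk1 was 5.55, 5.94, 5.05, 5.18 and 5.30 in the control samples and 5.50 to 6.39 (median 6.02) in the western group, with a log2 change of 0.63 (SE 0.20, adjusted p = 0.0617). Ccnb2, a B-type cyclin, had a log2 change of 0.51 (SE 0.18, adjusted p = 0.0936) over control samples that spread from 4.64 to 5.70. Both passed without western 2 and without control 2, and Cdk1 also without quercetin sample 6. Ccna2, cyclin A2, had a log2 change of 0.12 (SE 0.15), Plk1, a kinase of mitotic entry, of 0.27 (SE 0.18) and Cdkn3, a phosphatase that acts on Cdk kinases, of 0.04 (SE 0.13).

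Foxm1, the forkhead factor that activates mitotic genes, was the single member lower at an unadjusted p under 0.05. Its brightest probe set read 5.15, 5.09, 5.86, 5.15 and 5.36 in the control samples and 4.29 to 5.25 (median 4.42) in the western group. Western 1 and western 6 overlapped the control samples, and the other 4 lay between 4.29 and 4.44. The log2 change was -0.69 (SE 0.23, adjusted p = 0.0707), and it passed without western 1 (0.0421), western 6 (0.0455) or quercetin sample 6 (0.0473). A second Foxm1 probe set above the filter went the other way, at 0.41 (SE 0.19, unadjusted p = 0.0452), so the files give no single direction for this gene.

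Among the spindle, checkpoint and proliferation genes other than Aurkb, Cdc20, the activator of the anaphase-promoting complex, had a log2 change of 0.55 (SE 0.22, adjusted p = 0.139), Birc5, the survivin subunit of the passenger complex, of 0.46 (SE 0.20, 0.171), and Mki67, the source of the Ki-67 antigen, of 0.43 (SE 0.19, 0.193). Mki67 ran from 4.79 to 5.15 in control samples and, apart from western 2 at 4.78, from 5.27 to 5.69 in western samples. Top2a, which untangles replicated DNA, lay between 4.88 and 5.33 in control samples and between 4.85 and 5.69 in western samples (0.35, SE 0.18, adjusted p = 0.261). Nusap1, a microtubule bundling protein, had a log2 change of 0.38 (SE 0.17), Aurka, the centrosomal Aurora kinase, of 0.31 (SE 0.15) and Prc1, which organises the central spindle, of 0.26 (SE 0.16). Kif11, Kif20a, Bub1b and Ect2, which act in spindle formation, the spindle checkpoint and cytokinesis, lay between -0.005 and 0.12 by their brightest probe sets. None of these passed by limma over all samples, although Cdc20 did without western 2 and Aurka without control 3.

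Cdkn1a, which encodes p21 and is a target of p53, was 7.49, 6.85, 6.69, 6.00 and 5.66 in the control samples and 6.53 to 7.59 in the western group. The control range alone covered most of the western range, with a log2 change of 0.54 (SE 0.30, adjusted p = 0.302). With quercetin it ran from 6.66 to 7.96.

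**Figure D4:**
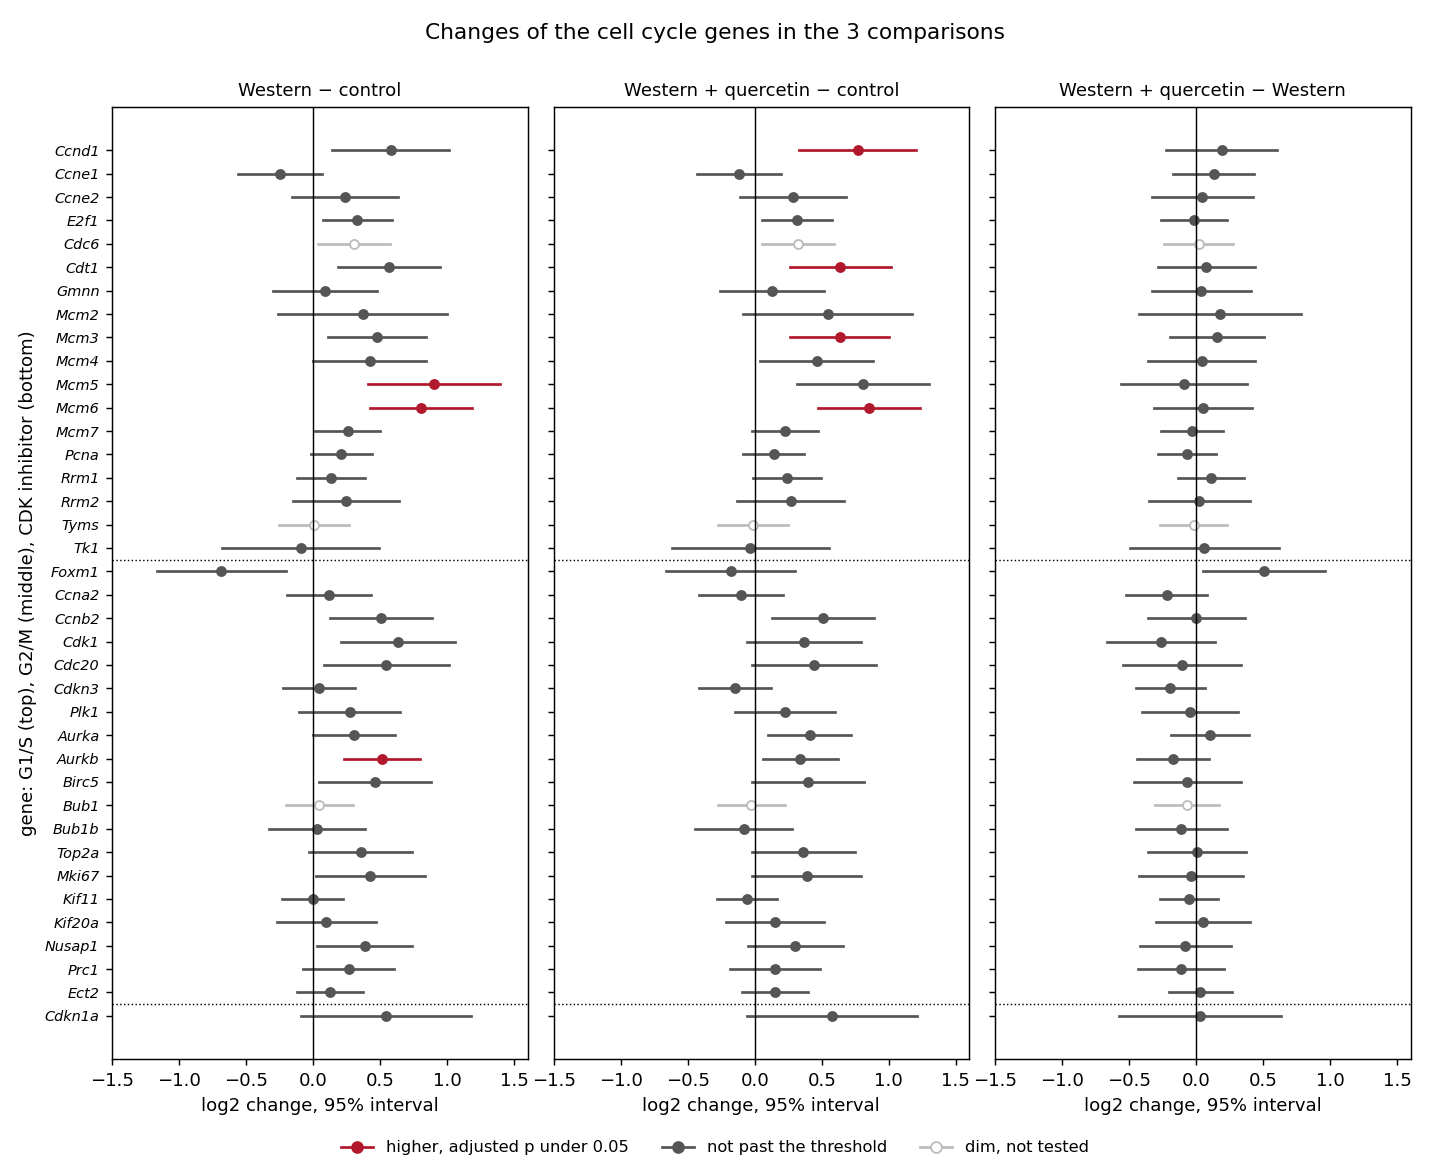
Log2 change of each member in the 3 comparisons (points) with its 95% interval (lines), G1/S genes at the top, G2/M in the middle and Cdkn1a at the bottom; red marks an adjusted p under 0.05 and open symbols are dim genes with no test. Red points are Mcm5, Mcm6 and Aurkb in the left panel, Ccnd1, Cdt1, Mcm3 and Mcm6 in the middle panel, and none in the right panel.

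The phases were then set side by side, with no test. Under the Western diet the median log2 change was 0.29 over 16 tested G1/S genes, of which 2 passed, and 0.29 over 18 tested G2/M genes, of which 1 passed. The difference of the medians was 0.004. In single livers, the mean G1/S level minus the mean G2/M level had an SD of 0.216 within groups. That SD describes single livers and is not the error of the difference of medians. At an unadjusted p under 0.05, 7 G1/S genes were higher and 0 lower, and 7 G2/M genes were higher and 1 lower. With only genes above the 50th percentile tested, 16 members remained and the difference of the medians was -0.219. Cdk1 (0.63) and Cdc20 (0.55) were the only G2/M genes among those 16, so this value does not describe the G2/M list.

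Livers on the Western diet with quercetin were then set against control livers, using the same control samples. Here 4 of 35 members rose and 0 fell, beside 5.41% of all genes called in either direction, 3.43% higher and 1.98% lower. At an unadjusted p under 0.05, 10 members were higher and 0 lower, where 10.5% of all genes were higher and 9.46% lower. All 4 were G1/S genes. The number of G1/S genes with a positive sign was 14 of 16, against 13 of 18 G2/M genes and 46.4% of all genes. The medians were 0.30 for G1/S, 0.26 for G2/M and -0.015 for all genes, and 0 of 18 G2/M genes passed by limma (3 were higher at an unadjusted p under 0.05). The difference between the phases was not tested.

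Mcm6 ran from 6.49 to 7.59 (median 6.92) with quercetin. All 6 livers again lay above the highest control sample at 6.46, as held for 2.55% of all genes. The log2 change was 0.85 (SE 0.18), or 1.81-fold, with an adjusted p of 0.00951, and at most 0.0288 with any 1 sample left out. With the actin ratio as a covariate the log2 change was 0.84 (SE 0.23) and the adjusted p was 0.0804.

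Ccnd1 ran from 7.76 to 9.09 (median 8.52), with 5 of 6 livers above all controls and sample 6 within the control range. The log2 change was 0.77 (SE 0.21), a 1.70-fold rise, with an adjusted p of 0.0358. Mcm3 was 5.91, 6.10, 5.81, 5.88 and 5.64 in the control samples and 6.06 to 7.14 (median 6.47) with quercetin, a log2 change of 0.63 (SE 0.18), or 1.55-fold (adjusted p = 0.0403). Cdt1 ran from 6.00 to 7.09 (median 6.43), a log2 change of 0.64 (SE 0.18), or 1.56-fold (adjusted p = 0.0451). For Mcm3 and Cdt1 too, 1 quercetin liver lay within the control range and the other 5 above it.

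These 3 calls were close to the threshold. Without control 1 or control 6, or without quercetin sample 2, 4 or 5, the single member called was Mcm6, and without control 3 the members called were Mcm6 and Aurka. Ccnd1 was also lost without control 2 or quercetin sample 1 or 3, and Mcm3 without control 2 or control 4-5. Cdt1 held only without control 4-5, western 2, western 4 or quercetin sample 6. Over the samples left out in turn, the adjusted p reached 0.0943 for Ccnd1, 0.104 for Mcm3 and 0.113 for Cdt1. With the actin ratio as a covariate it was 0.236, 0.212 and 0.234, with log2 changes of 0.63, 0.58 and 0.56, and 0 members passed, while 155 of all genes did. Mcm5 fell just outside, with a log2 change of 0.81 (SE 0.23, adjusted p = 0.0519) over quercetin livers from 6.08 to 7.16, and passed without control 2, western 2, western 5 or quercetin sample 1, 3 or 6. Aurkb had a log2 change of 0.34 (SE 0.13, adjusted p = 0.156), Ccnb2 of 0.51 (0.115) and Aurka of 0.41 (0.115).

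Quercetin within the Western diet was tested directly between the 6 western and the 6 quercetin livers. Of the 35 members, 0 passed, beside 0.00% of all genes, and at an unadjusted p under 0.05 there was 1 member, Foxm1, beside 2.87% of all genes. Foxm1 ran from 4.60 to 5.82 (median 5.15) with quercetin against 4.29 to 5.25 without, a log2 change of 0.51 (SE 0.22, adjusted p = 0.999913 by limma). Only its brightest probe set moved that way: the second Foxm1 probe set had a log2 change of -0.007. The count of members rests on the brightest probe sets. The second Ccne1 probe set had a log2 change of 0.38 (SE 0.14), against 0.13 by its brightest. The other Kif11 probe sets above the filter had 0.26 (SE 0.11) and -0.20 (SE 0.11), against -0.05 by its brightest.

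For the genes called against control, the 95% interval of the quercetin effect included 0. The 95% interval of the log2 change with quercetin was -0.31 to 0.42 for Mcm6, -0.56 to 0.38 for Mcm5 and -0.19 to 0.51 for Mcm3. It was -0.22 to 0.61 for Ccnd1, -0.29 to 0.44 for Cdt1 and -0.44 to 0.10 for Aurkb. The median log2 change was 0.05 over the G1/S genes, with 12 of 16 positive, and -0.06 over the G2/M genes, with 6 of 18 positive, where 47.7% of all genes were positive. The difference of the medians was 0.107 and was not tested. The SD of 0.216 between single livers of a group is not the error of this difference.

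Several members were read by more than 1 probe set. Of 83 probe sets paired with members, 64 lay above the filter, and 21 members had more than 1 there. In 17 of those 21 all had the same sign in the western livers against control. Both Mcm6 probe sets rose alike (0.80 and 0.89). Mcm5 gave 0.90 by the brightest, whose _x_at suffix marks probes that can also bind other transcripts, and 0.42 (SE 0.16) by the other. Mcm2 gave 0.37 (SE 0.30) by its brightest and 0.78 (SE 0.16) by the other, and Mcm4 gave 0.42 and 0.75. Aurkb gave 0.51 by its brightest, also an _x_at probe set, and 0.34 (SE 0.18) by the other. With the _x_at and _s_at probe sets left out, Mcm5 did not pass (adjusted p = 0.112), while Mcm2 (0.00677) and Mcm3 (0.0286) did, beside Mcm6. Aurkb could not be tested there, since it was read only by probe sets of these kinds. When each gene was read by averaging over its probe sets, Mcm5 (0.0891) and Aurkb (0.0581) did not pass, while Mcm2 (0.0322), Mcm4 (0.0496) and Mcm6 did. The 5 Mcm3 probe sets lay between 0.29 and 0.55, the 4 of Mcm7 between 0.09 and 0.26 and the 3 of Ccnd1 between 0.45 and 0.68. Ccna2 gave 0.12 by its brightest and 0.45 (SE 0.15) by the other. In the same order Bub1b gave 0.03 and 0.41 (SE 0.21), and Prc1 gave 0.26 and 0.47 (SE 0.18). Other probe sets lay below the brightest for Cdc20 (0.37 against 0.55) and Rrm2 (0.05 and 0.07 against 0.24). The 4 members with mixed signs were Foxm1, E2f1, Kif11 and Rrm1.

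**Figure D5:**
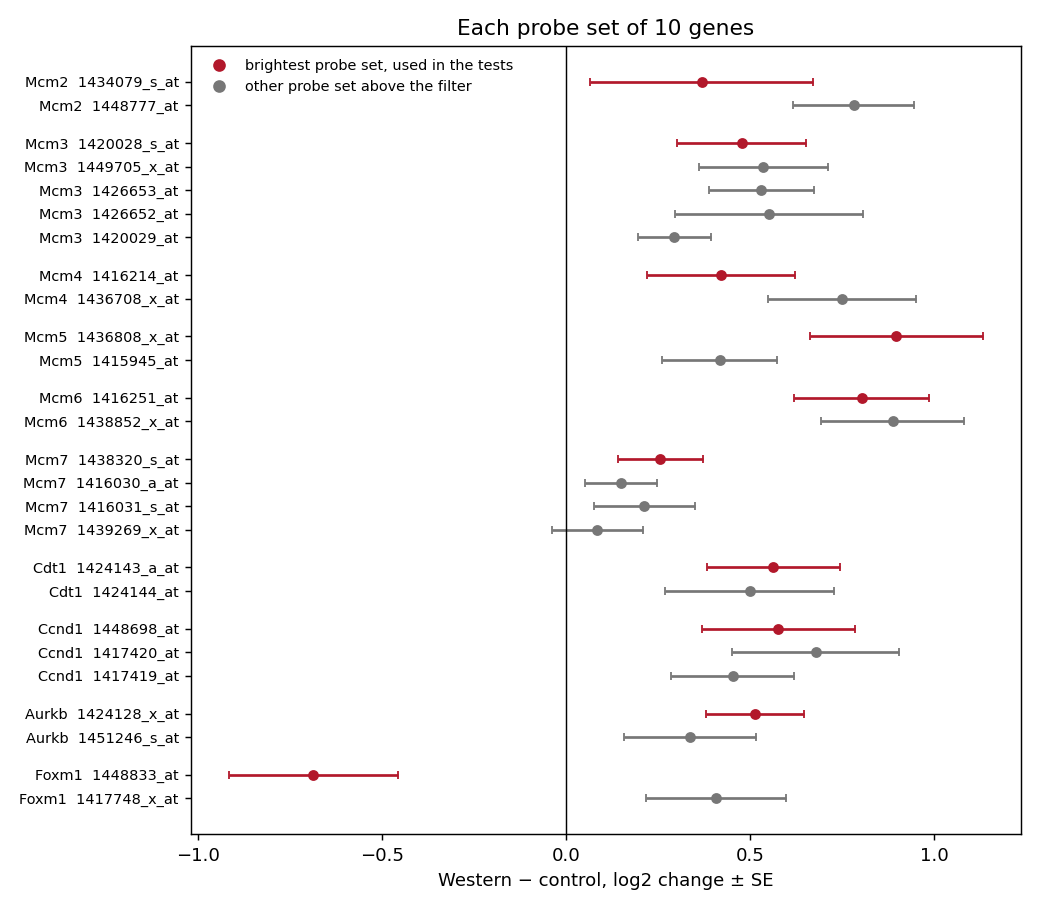
Log2 change of the western group against control (points) with its SE (bars) for every probe set above the filter of 10 members, the brightest in red and the others in grey. All points of the MCM genes, Cdt1, Ccnd1 and Aurkb lie to the right of 0, and the Foxm1 probe sets lie on opposite sides of it, at -0.69 and 0.41.

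Other genes of the same processes were counted from wider lists. For comparison, 5.49% of all genes tested were called higher and 3.16% lower in the western group. At an unadjusted p under 0.05 these shares were 12.4% and 10.9%. Of 35 genes of the replication origin and fork, 0 were higher and 1 lower in the western group, with a median log2 change of 0.009. The one that fell was Pold2, a subunit of DNA polymerase delta (-0.39, SE 0.09, 1.31-fold lower, adjusted p = 0.00896). Gins2, part of the helicase's GINS partner complex, had a log2 change of 0.71 (SE 0.27, adjusted p = 0.117). Of 8 genes of nucleotide supply, Dck, which phosphorylates deoxycytidine, rose 1.59-fold (log2 change 0.67, SE 0.13, adjusted p = 0.00329) and Shmt1, of folate metabolism, fell (-0.42, SE 0.12, adjusted p = 0.0296).

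Of 30 further genes of mitosis and cytokinesis, 2 rose and 0 fell, with a median of 0.19. That count stood near the 5.49% of all genes called higher. The genes that rose were Spc25, of the kinetochore (1.40-fold, log2 change 0.48, SE 0.10, adjusted p = 0.00657), and Mad2l1, of the spindle checkpoint (1.32-fold, 0.40, SE 0.11, adjusted p = 0.0278). None of 21 genes of the E2F, RB and G1 cyclin-CDK list passed by limma (3 higher and 1 lower at an unadjusted p under 0.05), and the closest was Tfdp2, a partner of E2F, at -0.45 (adjusted p = 0.0506). None of the other 4 tested CDK inhibitor genes passed by limma, and 0 did at an unadjusted p under 0.05. Of 16 targets of p53, Phlda3, a repressor of AKT, rose 1.59-fold (0.67, SE 0.13, adjusted p = 0.00449).

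In quercetin livers against control, Spc25 (1.39-fold, adjusted p = 0.00919), Dck (1.43-fold, 0.0245) and Phlda3 (1.58-fold, 0.00700) were again higher, and Pold2 and Shmt1 lower. Btg2, an antiproliferative p53 target, was higher (1.54-fold, 0.0217) and Pttg1, securin, lower (1.26-fold, 0.0230). Over all genes tested, 3.43% were called higher and 1.98% lower in quercetin livers against control. Within the Western diet 0 genes of these lists passed by limma, and 3 were at an unadjusted p under 0.05, beside 2.87% of all genes.

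Markers of other cell types moved in the same livers. Of 18 macrophage and Kupffer cell markers, 10 were higher and 0 lower in the western group (median 0.66). Over all genes tested, 5.49% were called higher and 3.16% lower. The rises were led by Lyz2 (2.65-fold), Cd14 (2.07-fold) and Mpeg1 (1.90-fold). A negative difference was found for 2 of the 18 markers, down to -0.83, and 0 were lower at an unadjusted p under 0.05. The summed level of the 18 markers (deposited scale, after normalization) was 5873 to 7442 in control samples, 8780 to 15400 in western and 7338 to 19416 with quercetin. Of 10 stellate cell markers, 4 were higher and 0 lower, with sums of 1900 to 2023, 2377 to 3193 and 2228 to 3589. Within the western group the lowest macrophage, stellate and G2/M means were all those of western 2 and the highest all those of western 1. With quercetin, sample 6 was lowest and sample 2 highest in all 3. This order was not particular to these lists. The endothelial and the B and plasma cell means shared it in the western group. The p53 target and the wider mitosis means shared it with quercetin. The G1/S mean was instead highest in western 5 and quercetin sample 5.

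The hepatocyte markers marked all samples as liver, with sums of 46604 to 50846 in control, 44544 to 46947 in western and 45642 to 49591 in quercetin livers, and 2 of 9 (Tat and Pck1) were lower in the western group. Of these 9 markers, 8 had a negative difference there (median -0.18). At an unadjusted p under 0.05, 5 were lower and 1 higher by limma, where 10.9% of all genes were lower and 12.4% higher. Of the other lists, 1 of 10 endothelial markers was higher (Lyve1, 1.38-fold) and 1 of 5 B and plasma cell markers lower (Jchain, 1.30-fold lower). These single calls stand beside 5.49% of all genes higher and 3.16% lower. None of 4 T and NK cell, 4 neutrophil, 5 erythroid and 4 cholangiocyte markers passed by limma; at an unadjusted p under 0.05 there were 1 lower, 1 higher, 2 lower and 0. The T cell markers Cd3d, Cd4 and Cd8b1 and the neutrophil markers Cxcr2 and Camp were under the filter, and 1 to 3 markers of most of these lists had no probe set of their own. The part of a changed mix of cells in the changes of the cell cycle genes was not tested.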

How the data were processed

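Liver RNA of each mouse was hybridised to an Affymetrix Mouse430_2 array, per the labels. The deposited value table holds 1 linear intensity per probe set and array (45101 probe sets, 0.0118 to 12323). How the authors summarised and scaled these intensities is not given in the sources used here, so the depth of an array is known only as its number of samples and signal level.

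The 64 control probe sets were left out. Values were transformed as log2(intensity + 16) and quantile normalized. Probe sets were named through GEO's platform annotation: 34945 had 1 symbol, 932 several and 9160 none. Each gene was read by its brightest probe set with 1 symbol, and genes under the 25th percentile of mean level (log2 4.56) were left out, which removes dim genes and limits what the counts cover. Control arrays 4 and 5 were averaged.

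Differences were tested with limma 3.58.1 (R 4.3.3) with 1 mean per group over 17 samples, moderated variances and two-sided p-values adjusted by Benjamini-Hochberg over all 13645 genes of a comparison; genes with an adjusted p under 0.05 are reported as changed. Fold changes are on the log2(intensity + 16) scale and understate changes of dim genes. Array quality measures were compared by exact permutation tests over samples. The procedure was tested on simulated data. Cages are not given in the labels, so p-values measure the spread between mice whether or not they shared a cage. Every mouse was treated as independent, so the p-values would be too small if mice of a cage were alike. Promoters came from RefSeq (GRCm38.p6); 8 members had no entry there (Ccne2, Mcm4, Ccna2, Ccnd1, Aurkb, Kif20a, Gmnn and Foxm1). Figures were drawn with Python 3.11.15 and matplotlib 3.10.9.

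All members could be named; of each wider list the 4 genes with the smallest p for the Western diet and the 2 with the smallest p for quercetin could be, and of each cell type list the first 3. The members and the lists were chosen with earlier results of these data known. Alternatives covered the scaling, the pseudocount, the filter, the choice of probe set, the groups fitted, blocks and covariates, and leaving out each sample.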

Additional observations from a re-analysis of the deposited data

Results flagged for a closer look

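Single samples standing apart from their group were sought in 114 groups of values (38 members in 3 groups), by a rule that flags about 1 in 20 groups by chance (5.7 here), and 4 were found. Western 2 read Mcm2 at 7.83, with the next liver at 6.67 and the lowest at 6.06. Control 2 read Mcm5 at 6.40, with the next sample at 5.73 and the lowest at 5.56. Control 4-5, the mean of the near-identical arrays, read Cdkn3 at 4.55, with the next at 5.00 and the highest at 5.06. Control 4-5 also read Aurkb at 4.10, with the next at 4.45 and the highest at 4.58. Mcm5 and Aurkb are among the genes called higher in the western group: without control 2 the Mcm5 call held, and without control 4-5 the Aurkb call did not (adjusted p = 0.0608).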

How the results depend on the processing

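For the western group against control, 3 members were called. The count was 19 with values as deposited, where 27.3% of all genes were called and the median log2 change of all genes was 0.22; 5 with array medians centred; 5 with control arrays 4 and 5 counted as 2 samples; 6 with only the 2 groups fitted; 5 with a block for the sets of samples numbered 1 to 3 and 4 to 6; and 0 when the actin ratio was a covariate, where 227 genes were called in all. It was 0 within samples 1 to 3 alone (Mcm6 at 0.50, adjusted p = 0.229), a split chosen after seeing the data, and 3 within samples 4 to 6. Those 3 were Mcm5, Mcm6 and Ccnb2 (1.03, adjusted p = 0.0230 by limma), while Aurkb was lost (0.65, 0.114). Control 4-5 and control 6 are the only control samples in that set. Leaving out 1 sample gave 1 to 8, while the genes called in all ran from 748 to 1395. For quercetin livers against control, 4 members were called. The count was 17 as deposited (23.9% of all genes), 1 with a pseudocount of 1, 2 with no filter, 1 with only the 2 groups fitted, 2 with the replicate block, 0 with the actin ratio, 1 within samples 1 to 3 (Cdt1) and 0 within 4 to 6. It was 6 with the block of sets (Mcm5 and E2f1 gained), 5 with array medians centred, with control arrays 4 and 5 as 2 samples, with an intensity trend or with the filter at the 50th percentile (Mcm5 gained each time), 5 with the mean of probe sets (Mcm2 and Mcm4 gained, Cdt1 lost), and 1 to 5 with 1 sample left out. In that comparison the genes called in all ran from 456 to 949 with 1 sample left out. Where no number for all genes is given, a member count has no background beside it and is not a result about the members. Quercetin within the Western diet gave 0 members under every setting run. Members called in any of these settings were higher, except Foxm1, which was lower where called. Within samples 1 to 3, the log2 changes of E2f1 and Rrm1 in the western group against control, both called under other settings, were -0.182 and -0.013. The G1/S minus G2/M difference under the Western diet was 0.004, and lay between -0.064 and 0.102 with 1 sample left out. It was -0.219 with the filter at the 50th percentile, where Cdk1 and Cdc20 were the only G2/M genes left. For quercetin within the Western diet the difference was 0.107, and 0.028 to 0.191 with 1 sample left out. The causes of these moves were not tested, and some settings also leave fewer samples or genes.

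The replicate numbers were not taken to pair mice: correlations of deviations between same-numbered samples ran from -0.262 to 0.324 over 16 pairs (median 0.132), and 13 were over 0.1 but not all, against 13 of 80 pairs of other numbers (median -0.024). Samples of the same set, 1 to 3 or 4 to 6, were over 0.1 in 25 of 48 pairs, against 1 of 48 pairs across sets. With the number as a replicate block, the calls were 2 (Mcm5 and Mcm6) for the western group, 0 for quercetin within the Western diet and 2 (Ccnd1 and Mcm6) for quercetin livers against control, so that Aurkb (adjusted p = 0.0597), Mcm3 (0.0524) and Cdt1 (0.0517) were lost; the phase differences were -0.033 and 0.107. Signals near the floor of 4 on the log2 scale limit what can be read for the dim members, and 3 members were too dim to test.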
